A study of Mus musculus with 13 samples.

Results

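The 9 genes described here specify, activate and fuse the cells of the muscle lineage, and were followed across 3 skeletal muscles of *mdm* mice: Pax7 and Pax3, the myogenic regulatory factors Myf5, Myod1, Myog and Myf6, the fusion genes Mymk and Mymx, and Mef2c. They were chosen by name, with earlier results of these data known, and make up 9 of the 17924 genes in the tables. Of these, 17069 genes reached a normalized count of 10 or more in 3 or more libraries and were tested, among them 8 of the 9 genes. Pax3 did not reach this limit, and its values are given here without a test.

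The *mdm* mouse carries a LINE insertion in the titin gene that removes part of the N2A-PEVK region of the protein and causes a progressive muscular dystrophy with myositis. All mice used here were *mdm* and came from a colony of the B6C3Fe a/a-Ttn*mdm*/J strain. Whole muscles were taken, and total RNA was sequenced from 5 extensor digitorum longus (EDL), 5 psoas and 3 soleus muscles, EDL and psoas being fast-twitch and soleus slow-twitch. The mice of the EDL libraries were 38, 38, 42, 38 and 38 days old for replicates 1 to 5, those of the psoas libraries 29, 38, 42, 38 and 38 days, and those of the soleus libraries 33, 36 and 38 days for replicates 1 to 3. Males gave soleus replicates 1 and 2 and the second replicate of EDL and of psoas, females the third of EDL and of psoas, and no sex was given for the others. No treatment was given in the labels. Wild-type libraries were not analysed here, so each comparison is between *mdm* muscles, and all groups share the mutation.

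Total counts ran from 9114176 to 48835209 per library. Titin had a normalized count of 333226 to 947475 in every library, but the deletion cannot be seen in a count over the whole gene, so the genotype could not be checked on it. The label of soleus could be checked on Myh7, the slow myosin heavy chain. It ranged from 98825 to 182496 in soleus, from 700 to 11097 in EDL and from 271 to 20950 in psoas. EDL and psoas overlapped, so Myh7 could not tell their labels apart. The 4 fibre markers Ckm, Acta1, Ttn and Mb were present in every library. Each library also carries a code, T1 to T6, whose meaning the labels do not give. Code T6 marks the libraries numbered 4 and 5 of both EDL and psoas, and soleus replicate 3. The p-values given here measure the spread between these libraries, not between mice. The paper reports fewer mice than muscles over both its genotypes, and the labels do not say which muscles share a mouse.

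Skeletal muscle fibres are repaired by satellite cells, stem cells that lie between the fibre and its basal lamina. Quiescent satellite cells express Pax7. On activation they express Myf5 and Myod1 and divide as myoblasts, and they then turn on Myog, leave the cell cycle and fuse through the membrane proteins myomaker and myomixer, encoded by Mymk and Mymx. Myf6 and Mef2c remain active in the mature fibre. Since these are bulk libraries of whole muscle, fewer cells of a type and less RNA per cell cannot be told apart.

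The 4 myogenic regulatory factors are paralogues with a shared basic helix-loop-helix domain, through which they bind DNA and dimerise with E proteins. How far their transcripts resemble each other bears on whether reads of 75 bases can be assigned to 1 of them. Shown here are 75 coding bases of each gene from this domain (GENCODE mouse release M21, GRCm38), with the 39 bases that all 4 genes share in capitals.
Myf5: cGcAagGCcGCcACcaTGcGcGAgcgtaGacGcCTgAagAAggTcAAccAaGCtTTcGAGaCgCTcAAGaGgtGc
Myod1: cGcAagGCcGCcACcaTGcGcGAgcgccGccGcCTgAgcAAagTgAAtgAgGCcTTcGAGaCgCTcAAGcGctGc
Myog: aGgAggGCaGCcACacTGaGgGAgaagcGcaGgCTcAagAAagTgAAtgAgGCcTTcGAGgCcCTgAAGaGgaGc
Myf6: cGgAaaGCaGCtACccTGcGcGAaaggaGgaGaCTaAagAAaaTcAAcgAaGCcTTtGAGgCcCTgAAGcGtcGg
In this stretch, Myf5 matched Myod1 at 62 of 75 bases, whereas Myf6 matched it at 49. The longest run shared without a mismatch by any pair of the 4 genes, over their whole annotated protein-coding transcripts, was the 26 bases cgcaaggccgccaccatgcgcgagcg of Myf5 and Myod1. Pax3 and Pax7 shared a run of at most 26 bases, and Mef2c shared at most 28 bases with Mef2d and 17 with Mef2a. All of these runs were shorter than 1 read. No exon of another annotated gene overlapped an exon of the 9 genes.

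Compared per length of exon, Myog and Myf6 were the most abundant of the 9 transcripts and Pax3 the least. The mean normalized count per kb was 1440 ± 448 in EDL, 2520 ± 803 in psoas and 1290 ± 313 in soleus for Myog (SD, n = 5, 5 and 3), and 1440 ± 706, 1300 ± 655 and 1420 ± 606 for Myf6. Mef2c followed at 1120 ± 403, 744 ± 225 and 914 ± 231, and in each muscle the libraries of these 3 genes overlapped, apart from Myog and Mef2c in psoas. Mymk, with 133 ± 38.0 in EDL and 406 ± 121 in psoas, and Myod1, with 73.5 ± 22.8 and 219 ± 56.3, came next by their means, ahead of Mymx and Myf5. Pax7, a gene of the stem cell, had 7.26 ± 1.15 in EDL, 14.7 ± 7.01 in psoas and 5.82 ± 0.484 in soleus. The exon length is that of all annotated transcripts together, 15715 bases for Mef2c against 1027 for Mymx, so the level per kb is understated for a gene of which only short transcripts are made.

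**Figure D1:**
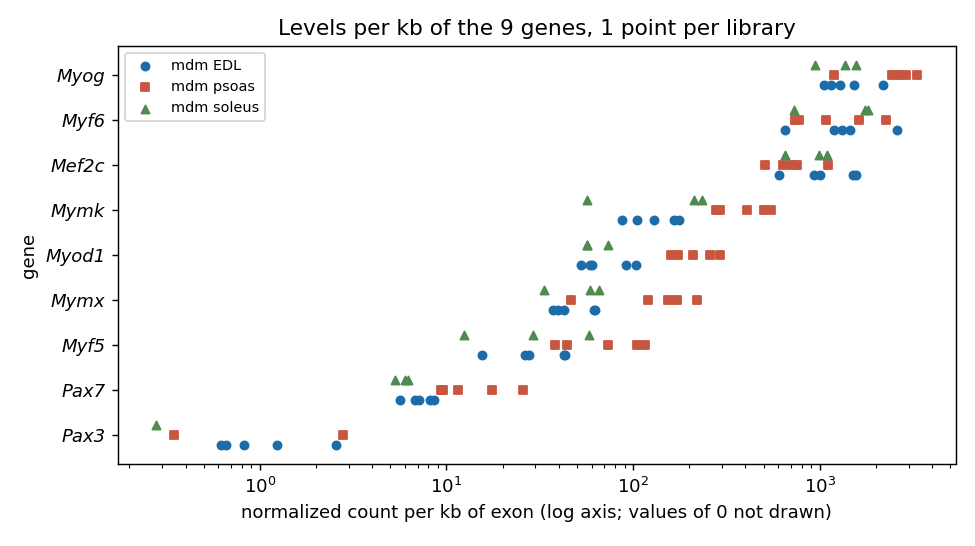
Normalized count per kb of exon (x axis, log scale) of each of the 9 genes (y axis), with 1 point for each of the 13 libraries, EDL as circles, psoas as squares and soleus as triangles, and values of 0 not drawn. Myog, Myf6 and Mef2c lie highest and overlap, and Pax7 and Pax3 lie lowest.

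The first comparison asked how the fast-twitch psoas and EDL of *mdm* mice differ in these genes. Myod1 and Mymk were higher in psoas, each by about the same log2 fold change, while Pax7, Myf5, Myog and Mymx had higher means in psoas without passing the test, and Myf6 and Mef2c had lower ones. A gene was called when the quasi-likelihood test of edgeR, adjusted by Benjamini-Hochberg over the 17069 genes, gave an adjusted p under 0.01 and the absolute log2 fold change was over 1. In this comparison 4.93% of all genes tested were called, and 2.43% of all genes tested were called as higher in psoas, against 2 of the 8 genes tested here. The libraries of psoas lay above all of EDL for Pax7, Myod1 and Mymk, 3 of the 8 genes, as they did for 6.48% of all genes tested.

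**Figure D2:**
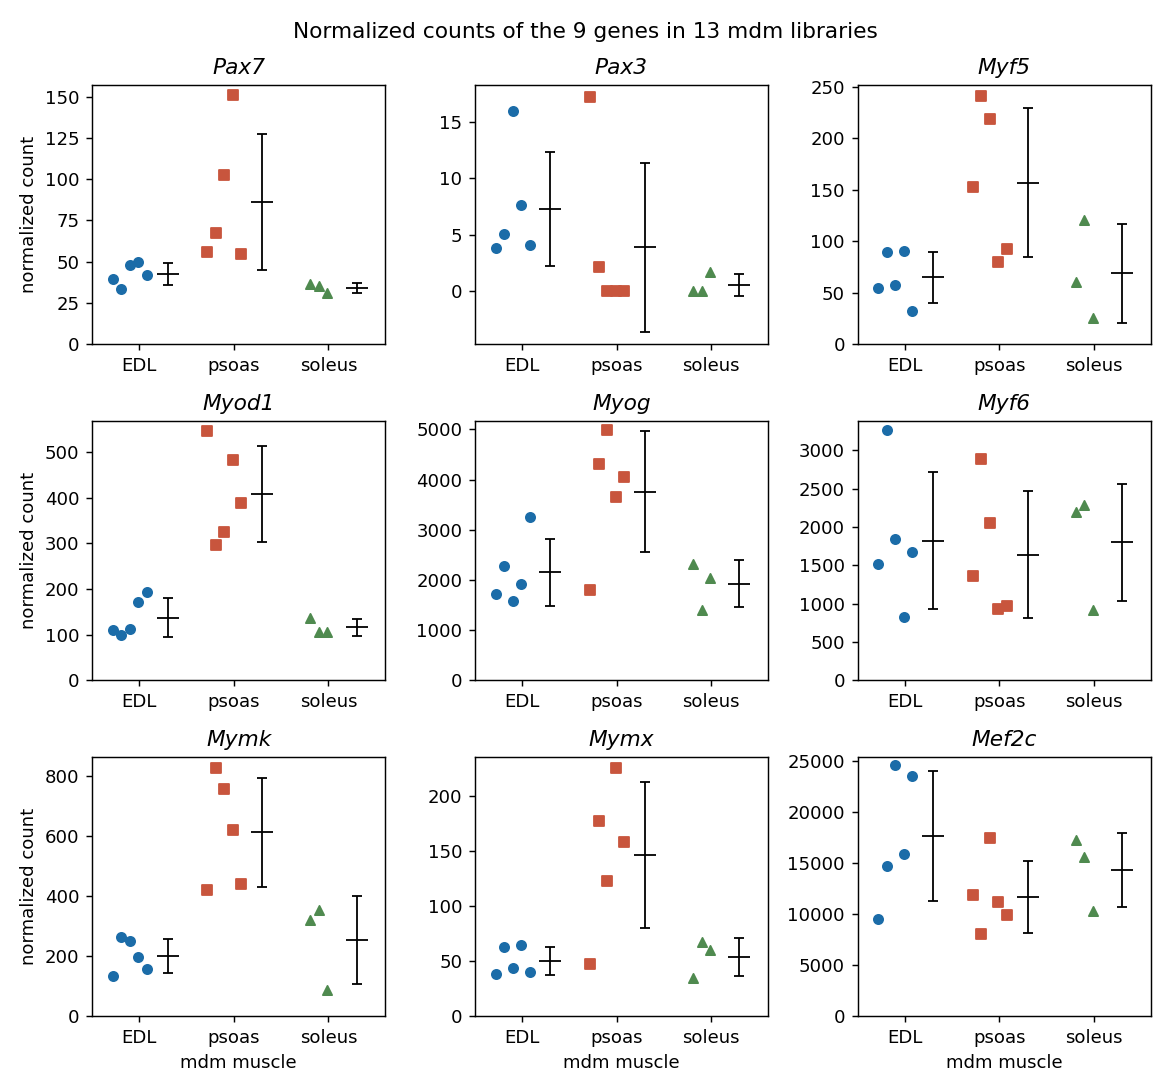
Normalized counts (y axis) of each of the 9 genes in the 13 libraries by muscle (x axis), 1 point per library in replicate order from left to right, with the mean and SD beside them. Psoas lies above EDL without overlap for Pax7, Myod1 and Mymk, and soleus overlaps with EDL for each of the 8 genes tested.

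Pax7 (ENSMUSG00000028736, chromosome 4, 139737062 to 139833528, reverse strand) encodes the paired-box factor that marks satellite cells. Its normalized count was 39.6, 33.2, 47.8, 50.1 and 41.9 in EDL replicates 1 to 5, 55.9, 67.3, 103, 151 and 54.7 in psoas, and 36.4, 34.99 and 30.9 in soleus. The psoas values all lay above those of EDL and soleus, and psoas replicates 3 and 4 stood highest. The raw counts were small, from 18 to 174 reads per library. Psoas exceeded EDL by a log2 fold change of 1.03 ± 0.296 (SE), which was not called by edgeR's quasi-likelihood test (adjusted p = 0.0281).

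Pax3 (ENSMUSG00000004872, chromosome 1, 78101267 to 78197134, reverse strand), the paralogue of Pax7 that acts in the embryonic dermomyotome and persists in satellite cells of some muscles, was at the edge of detection. It had 9, 8, 8, 7 and 3 reads in EDL, 37, 4, 0, 0 and 0 reads in psoas and 0, 0 and 1 read in soleus. All 5 EDL libraries thus held Pax3 reads, while 3 of 5 psoas and 2 of 3 soleus libraries held none, and psoas replicate 1, from the youngest mouse, had the most. A count of 0 allows up to 3 reads, which is also the count of EDL replicate 5, so no order of the muscles was read from these values.

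Myf5 (ENSMUSG00000000435, chromosome 10, 107482908 to 107486134, reverse strand) is the earliest of the myogenic regulatory factors in development and is also made in many quiescent satellite cells. In normalized counts it had 54.5, 89.3, 57.7, 90.4 and 32.5 in EDL, 153, 241, 219, 79.9 and 92.0 in psoas, and 60.4, 121 and 25.8 in soleus. Psoas replicates 1 to 3 stood above all other libraries, while psoas replicates 4 and 5, which carry code T6, lay among or next to the highest EDL values. Against EDL, psoas had a log2 fold change of 1.27 ± 0.421 (adjusted p = 0.0499, edgeR's quasi-likelihood test), not called.

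Myod1 (ENSMUSG00000009471, chromosome 7, 46376474 to 46379099, forward strand) encodes MyoD, the factor of activated satellite cells and myoblasts. Normalized counts were 110, 98.2, 112, 171 and 193 in EDL, 546, 298, 325, 482 and 390 in psoas, and 137, 105 and 105 in soleus. The lowest psoas library was above the highest of EDL and of soleus. Myod1 rose in psoas by a log2 fold change of 1.58 ± 0.234 against EDL (408 ± 105 against 137 ± 42.5 normalized counts, SD, n = 5 each; adjusted p = 0.00137, edgeR's quasi-likelihood test). It was the only one of the 8 genes called as higher under every alternative tried, with adjusted p up to 0.00781.

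Myog (ENSMUSG00000026459, chromosome 1, 134289989 to 134292548, forward strand) encodes myogenin, which drives differentiation of myoblasts and is also raised in denervated fibres. Its normalized count was 1720, 2267, 1585, 1917 and 3254 in EDL, 1797, 4315, 4989, 3655 and 4052 in psoas, and 2326, 1409 and 2032 in soleus. Psoas replicates 2 to 5 lay above every EDL and soleus library, and psoas replicate 1 lay among them. Psoas differed from EDL by a log2 fold change of 0.81 ± 0.277 (adjusted p = 0.0562, edgeR's quasi-likelihood test), not called.

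Myf6 (ENSMUSG00000035923, chromosome 10, 107492853 to 107494737, reverse strand), also named MRF4, is the regulatory factor of mature fibres and is the neighbour of Myf5 on the same strand. It had normalized counts of 1515, 3259, 1838, 824 and 1668 in EDL, 1360, 2884, 2049, 930 and 973 in psoas, and 2194, 2282 and 915 in soleus. The muscles overlapped over nearly their whole range, and the 4 lowest values were all of code T6. Psoas against EDL gave a log2 fold change of -0.16 ± 0.395 (adjusted p = 0.811, edgeR's quasi-likelihood test).

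Mymk (ENSMUSG00000009214, chromosome 2, 27061636 to 27072179, reverse strand) encodes myomaker, the membrane protein that brings myoblast membranes to hemifusion. Its normalized count was 132, 265, 251, 196 and 158 in EDL, 420, 827, 757, 620 and 441 in psoas, and 320, 353 and 86.0 in soleus. Every psoas library was above every EDL and soleus library. Mymk rose in psoas by a log2 fold change of 1.61 ± 0.343 against EDL (613 ± 182 against 201 ± 57.4 normalized counts, SD, n = 5 each; adjusted p = 0.00758, edgeR's quasi-likelihood test). This call was close to the limit, since it was lost without EDL replicate 1, 3, 4 or 5, psoas replicate 2, 3 or 4, or soleus replicate 1, and without the libraries of code T6, with adjusted p up to 0.0216, while the log2 fold change stayed between 1.48 and 1.75.

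Mymx (ENSMUSG00000079471, chromosome 17, 45600971 to 45602102, reverse strand) encodes myomixer, the small protein that completes fusion with myomaker. Normalized counts of Mymx were 38.3, 63.2, 43.8, 64.3 and 40.6 in EDL, 47.5, 177, 123, 226 and 158 in psoas, and 34.4, 67.1 and 60.2 in soleus. Psoas replicates 2 to 5 lay above all other libraries, whereas psoas replicate 1 fell inside the range of EDL. The log2 fold change of 1.54 ± 0.359 missed the limit (adjusted p = 0.0109, edgeR's quasi-likelihood test). Fitted with the replicate number as a block it passed, at 1.42 with an adjusted p of 0.00608, and without psoas replicate 1 at 1.77 with an adjusted p of 0.00268, both by the same test. Of 24 alternatives, however, 18 did not call Mymx. Over all of them the log2 fold change ran from 1.25 to 1.77, with adjusted p up to 0.148 over edgeR, DESeq2 and limma.

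Mef2c (ENSMUSG00000005583, chromosome 13, 83504034 to 83667080, forward strand) encodes a MADS-box factor that acts with the myogenic regulatory factors and controls sarcomere genes in fibres. Its normalized count was 9517, 14660, 24550, 15920 and 23520 in EDL, 11860, 8019, 17460, 11200 and 9929 in psoas, and 17240, 15550 and 10290 in soleus. The muscles overlapped, with EDL replicates 3 and 5 highest and psoas replicate 2 lowest. In psoas the log2 fold change against EDL was -0.59 ± 0.293 (adjusted p = 0.171, edgeR's quasi-likelihood test).

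**Figure D3:**
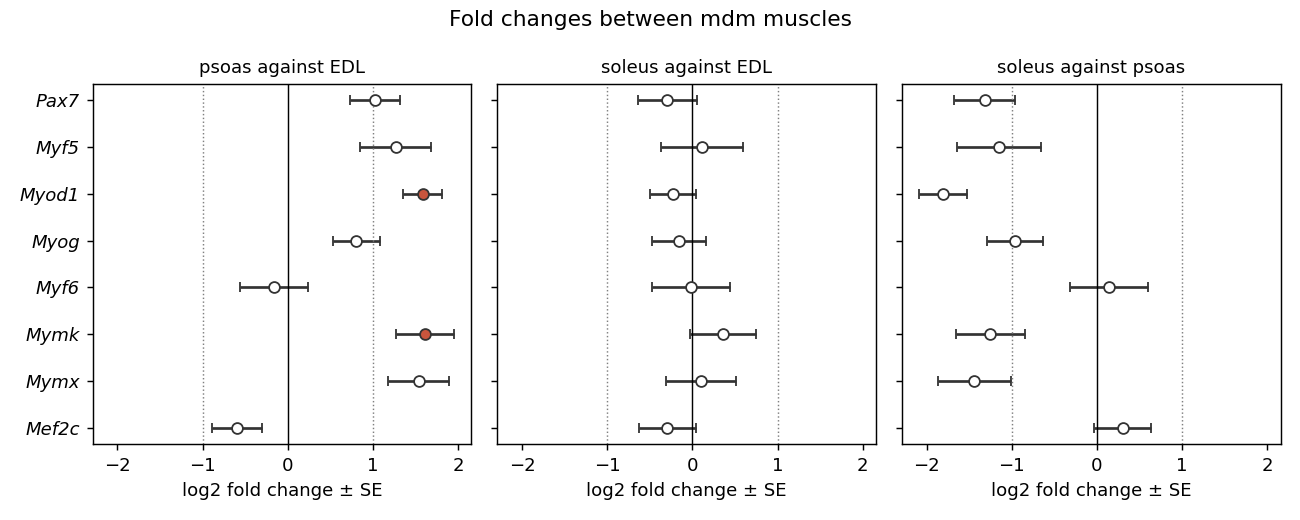
Log2 fold change with its SE (x axis) of the 8 genes tested (y axis) for psoas against EDL, soleus against EDL and soleus against psoas, with filled points for called genes and dotted lines at -1 and 1. Filled points appear only for Myod1 and Mymk in psoas against EDL, and the points of soleus against EDL lie between -0.29 and 0.36.

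Libraries of EDL and psoas with the same replicate number were also set against each other. Mymk was higher in psoas in 5 of 5 numbers and by nearly the same amount, with differences in log2 CPM of 1.67, 1.60, 1.58, 1.68 and 1.47 for replicates 1 to 5. Myod1 was higher in 5 of 5, by 2.31, 1.55, 1.52, 1.51 and 1.0. Its difference was largest for replicate 1, for which the psoas mouse was 29 and the EDL mouse 38 days old. Mymx differed by 0.32, 1.44, 1.45, 1.81 and 1.92, Pax7 by 0.50, 0.96, 1.07, 1.59 and 0.37 and Myog by 0.08, 0.90, 1.64, 0.95 and 0.31, each higher in psoas in 5 of 5. Myf5 was higher in psoas in 4 of 5 numbers, Myf6 in 2 and Mef2c in 1. Within code T4, held by replicate 2 of both muscles, and within code T6, the difference was 1.55 and 1.26 for Myod1 and 1.60 and 1.57 for Mymk.

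**Figure D4:**
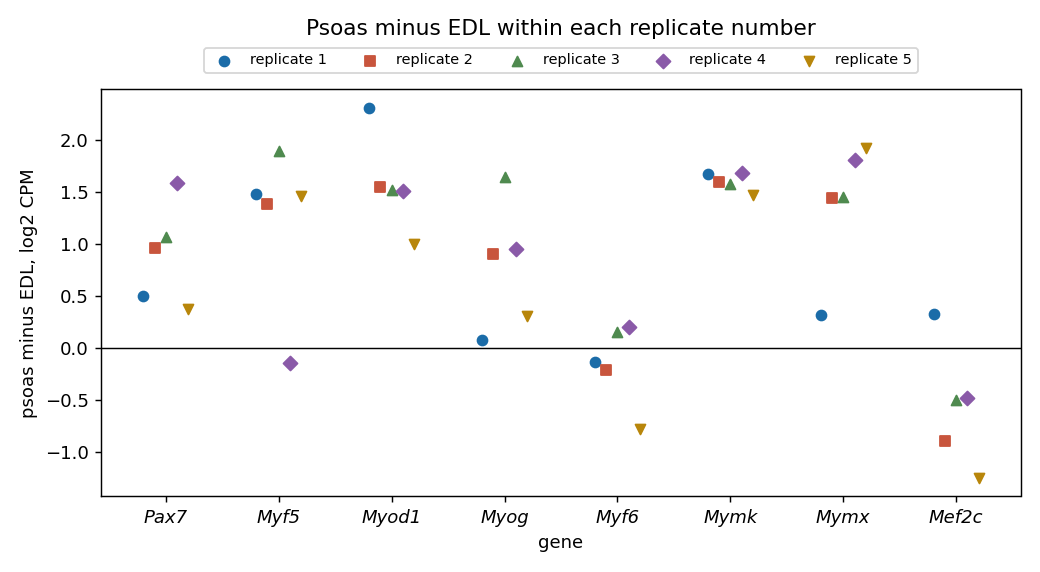
Difference in log2 CPM between psoas and EDL libraries of the same replicate number (y axis) for the 8 genes tested (x axis), 1 symbol per replicate number. The 5 points of Mymk lie within 1.47 to 1.68, those of Myod1 within 1.0 to 2.31, and those of Myf6 and Mef2c on both sides of 0.

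Markers of other cell types also differed between these muscles. The summed normalized count of 3 mesothelial markers (Upk3b, Msln and Wt1) ran from 25.7 to 95.4 in EDL and from 169 to 836 in psoas, with 3 of 3 called as higher. None of the 3 was at 0 in a whole muscle, but in EDL Upk3b and Wt1 were close to it. Upk3b had a normalized count of 0.426 in EDL replicate 1 and 0 in replicates 2 to 5. Wt1 had 0.426 and 0.638 in EDL replicates 1 and 2 and 0 in replicates 3 to 5. Nearly all of the EDL sum was Msln, at 25.7 to 94.5. Macrophage markers, 5 genes, summed to 968 to 3173 in EDL and 1490 to 6125 in psoas, with overlap and 0 called by edgeR's quasi-likelihood test, DESeq2 or limma, 0 having an unadjusted p under 0.05. All 5 had a log2 fold change above 0, with a median of 0.64. So did 3 of 3 adipocyte markers, with a median of 0.95, of which 0 were called by these tools and 1 had an unadjusted p under 0.05 in edgeR's test. Of the markers of fibro-adipogenic progenitors (5 genes), endothelium (4 genes) and smooth muscle and pericytes (3 genes), 0 were called by any of these tools and 3, 1 and 2 had an unadjusted p under 0.05. The 4 fibre markers summed to 1047000 to 1812000 in EDL and 742200 to 1364000 in psoas, with overlap and a median log2 fold change of -1.14. Of these 4, edgeR's quasi-likelihood test called 1 as lower in psoas, Ckm. DESeq2 called 3 and limma 1, and 3 had an unadjusted p under 0.05 in edgeR's test. The part of fibres and of these other cells in the differences of Myod1 and Mymk was not tested. The sum of 8 satellite cell markers, of which Pax7 and Myf5 are 2, overlapped between the muscles, at 4317 to 6789 in EDL, 2910 to 6144 in psoas and 3282 to 4935 in soleus. Its largest part was Itga7, with a mean of 4060 in EDL, 2627 in psoas and 2977 in soleus. The 8 markers did not go 1 way. Itga7 and Chodl had lower means in psoas than in EDL, and Pax7, Myf5, Cdh15, Vcam1, Calcr and Megf10 higher ones, so the sum does not stand for each marker.

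The second comparison set the slow-twitch soleus against EDL. Of the 8 genes, 0 were called (adjusted p from 0.738 to 0.992, edgeR's quasi-likelihood test), beside 0.978% of all genes tested. DESeq2 and limma also called 0, and 0 had an unadjusted p under 0.05. The log2 fold changes ran from -0.29 ± 0.349 for Pax7 and -0.29 ± 0.340 for Mef2c to 0.36 ± 0.384 for Mymk, with -0.02 ± 0.456 for Myf6. The libraries of both muscles overlapped for all 8 genes, whereas for 11% of all genes tested they did not. With 3 soleus libraries the SE of these differences ran from 0.270 for Myod1 to 0.482 for Myf5. Adipocyte markers were higher in soleus than in EDL, 3 of 3 without overlap, with a median log2 fold change of 2.3. Of these, edgeR's quasi-likelihood test called 1, DESeq2 3 and limma 1. The part of adipocytes in the values of the 8 genes was not tested.

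The third comparison set soleus against psoas. It shares its psoas libraries with the first comparison and its soleus libraries with the second. Here 0 of the 8 genes were called, beside 0.0762% of all genes tested, though 6 of the 8 had an unadjusted p under 0.05 in edgeR's quasi-likelihood test, and DESeq2 and limma called 1 each, Myod1. Soleus libraries lay below all psoas libraries for Pax7, Myod1 and Mymk, as they did for 5.19% of all genes tested. Myod1 was lower in soleus by a log2 fold change of -1.81 ± 0.284, with an adjusted p of 0.0121 that missed the limit of 0.01. The log2 fold change was -1.32 ± 0.356 for Pax7 (adjusted p = 0.133), -1.44 ± 0.427 for Mymx (adjusted p = 0.169) and -1.25 ± 0.403 for Mymk (adjusted p = 0.209), all by the same test. Myf5, at -1.15 ± 0.496, and Myog, at -0.96 ± 0.329, had lower means in soleus, and Mef2c, at 0.30 ± 0.334, and Myf6, at 0.14 ± 0.454, higher ones. Adipocyte markers (Adipoq, Plin1 and Cidec) summed to 8000 to 13080 in soleus, 2609 to 6278 in psoas and 986 to 4701 in EDL, and 3 of 3 mesothelial markers lay lower in soleus than in psoas without overlap (27.9 to 91.1 against 169 to 836 in sum), of which edgeR's quasi-likelihood test called 0, DESeq2 3 and limma 1, though all 3 had an unadjusted p under 0.05 in edgeR's test. The part of both cell types in these values was not tested.

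Ratios within a library do not depend on how libraries are scaled, so 6 ratios between the genes were compared by an exact two-sided permutation test in each of the 3 comparisons. None of the 18 passed after Benjamini-Hochberg adjustment, with a lowest adjusted p of 0.45. The exact test can reach 0.00794 for 5 against 5 libraries and 0.0179 for 3 against 5. The ratio with the smallest unadjusted p was that of Mymk to Myog reads, 0.0772, 0.117, 0.159, 0.103 and 0.0490 in EDL and 0.234, 0.192, 0.152, 0.170 and 0.109 in psoas. Psoas was higher in replicates 1, 2, 4 and 5 but not in replicate 3, and the difference in mean log2 ratio was 0.82 (exact permutation p = 0.0476, adjusted p = 0.45). Reads of Myf6 per read of Myog were 0.881, 1.44, 1.16, 0.430 and 0.513 in EDL and 0.757, 0.668, 0.411, 0.255 and 0.240 in psoas, a difference of -0.93 on the log2 scale (exact permutation p = 0.0952, adjusted p = 0.45). The ratio of Myog to Pax7 reads, 31.9 to 75.2 in EDL, 24.1 to 73.0 in psoas and 39.5 to 63.2 in soleus, overlapped widely. Myod1 to Pax7 was 2.28 to 4.50 in EDL, 3.15 to 9.69 in psoas and 2.96 to 3.74 in soleus.

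Whether the genes varied together among libraries of 1 muscle was examined on the deviations of log2 CPM from the muscle means, over the 13 libraries and 28 pairs of the 8 genes. No pair passed after Benjamini-Hochberg adjustment of a permutation test that kept libraries within their muscle. The highest correlations were Myf5 with Mymk (Pearson's r = 0.74, exact permutation p = 0.0251, adjusted p = 0.351; Spearman's rho = 0.69, p = 0.0306, adjusted p = 0.286) and Myf6 with Mymk (r = 0.70, exact permutation p = 0.0142, adjusted p = 0.351; rho = 0.75, p = 0.00896, adjusted p = 0.251). Without the 2 libraries farthest from the median of the first gene, r was 0.54 and 0.79. With the label code removed as well as the muscle, r was 0.40 and -0.40. Myf5 with Myf6 had r = 0.63 (exact permutation p = 0.0468, adjusted p = 0.437) and rho = 0.68 (exact permutation p = 0.0256, adjusted p = 0.286), with r = 0.52 without the 2 farthest libraries and -0.49 with the code removed. Without EDL replicate 4, 1 of the 28 pairs passed, Myf5 with Myf6. With the code removed, r thus had the opposite sign in 2 of these 3 pairs. These values were not tested and few libraries share a code, so no reversal was read from them.

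The regulatory sequence in front of Myog is shown because Myf5 and MyoD act on this gene through E-boxes, of the form CANNTG. Of the 9 genes, 4 had a promoter in the RefSeq table used (GRCm38.p6): Myog, Pax7, Myf5 and Mef2c. The 235 bases of Myog on chr1:134289754-134289988, forward strand, end where the annotated gene begins.
Myog promoter: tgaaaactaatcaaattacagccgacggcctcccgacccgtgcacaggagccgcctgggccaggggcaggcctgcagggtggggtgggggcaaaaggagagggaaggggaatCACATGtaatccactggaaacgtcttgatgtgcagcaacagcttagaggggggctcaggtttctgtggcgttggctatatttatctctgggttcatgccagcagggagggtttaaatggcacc
The capitals mark the only match to CANNTG in these 235 bases, which begins 123 bases before the gene. The remaining 15 of the 250 bases before the RefSeq start of Myog lay inside the annotated gene and were not searched. Whether they hold a match is therefore not known here. On both strands of this stretch there was no match to CAGCTG, which is 1 form of CANNTG, or full match to the MEF2 consensus. The consensus was searched as YTAWWWWTAR without a mismatch, where Y is C or T, W is A or T and R is A or G. The bases ctatatttat of this stretch differ from it in the last base only, so a MEF2 site of looser form is not excluded. In the 250 bases before Myf5 there was none of the 3 motifs, and before the first Mef2c start there were 2 matches to CANNTG alone. The windows of Pax7 and of the other Mef2c starts lay inside the annotated genes and were not searched. Of 32851 promoter windows of 250 bases in the table, 66.2% held CANNTG, 13% CAGCTG and 2.92% the MEF2 consensus. These windows were not cut at annotated genes, unlike that of Myog.

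Other genes of the pathway were described from lists that name them by role, 88 genes tested in all besides the 8. In psoas against EDL, 9 were called as higher and 1 as lower, by edgeR's quasi-likelihood test. Over all genes tested, 2.43% were called as higher and 4.93% in either direction. The lists were chosen with earlier results of these data known, so their counts and medians are a description only. The targets of differentiation and cell cycle exit held most of them, with 5 of 13 called as higher and 1 as lower, and a median log2 fold change of 1.15 against 0.02 over all genes tested. These 5 were Cdkn1a, which encodes the cell cycle inhibitor p21 (1.47 ± 0.280, adjusted p = 0.00429), smooth muscle actin Acta2 (1.42 ± 0.271, adjusted p = 0.00437), the acetylcholine receptor subunits Chrng (1.32 ± 0.297, adjusted p = 0.00943) and Chrnd (1.25 ± 0.252, adjusted p = 0.00585), and the embryonic myosin light chain Myl4 (1.26 ± 0.280, adjusted p = 0.0092). Acta2 is also made in smooth muscle and in activated fibroblasts. The 1 called as lower was Ckm, creatine kinase of the mature fibre, at -1.67 ± 0.302 (adjusted p = 0.00356). Its normalized count ran from 106300 to 187500 in EDL and from 24850 to 64790 in psoas.

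Among 20 other satellite cell genes, 2 were called as higher in psoas and 0 as lower, with a median log2 fold change of 0.68. They were Megf10, a receptor of myoblasts (1.179 ± 0.255, adjusted p = 0.00822), and the Notch target Heyl (1.32 ± 0.283, adjusted p = 0.00778), by edgeR's quasi-likelihood test. The adhesion gene Cdh15, M-cadherin, had a log2 fold change of 0.71 ± 0.246 (adjusted p = 0.0582) and the laminin receptor Itga7 one of -0.63 ± 0.243 (adjusted p = 0.0843), neither called. Of 17 MEF2 and other transcription factors tested, 2 were called as higher: Tead4, a factor downstream of MyoD, at 2.34 ± 0.451 (adjusted p = 0.0046), and Runx1, at 1.39 ± 0.30 (adjusted p = 0.00819). Mef2a did not differ beyond its error (-0.01 ± 0.207), and Mef2d had 1.02 ± 0.280 (adjusted p = 0.023), not called, so the 3 MEF2 genes measured had point estimates below, near and above 0. Of 14 partners and inhibitors of the regulatory factors 0 were called, by edgeR, DESeq2 or limma, with a median of 0.08 and 1 gene at an unadjusted p under 0.05. Of 16 other fusion and adhesion genes, with a median of 0.32, and of 8 cell division genes, with a median of 0.91, edgeR and limma called 0 and DESeq2 called 1 each, while 6 and 3 had an unadjusted p under 0.05.

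The calls of Chrnd, Heyl, Runx1, Megf10, Myl4 and Chrng were close to the limit, since 8 to 11 of the 13 fits without 1 library lost each of them, as did 2 or 3 of these fits for those of Ckm, Cdkn1a, Acta2 and Tead4. All 10 were lost without code T6, a fit with 30 genes of all tested called as higher and 153 as lower, against 415 and 426 with all libraries. Their directions remained in that fit, with log2 fold changes from 1.01 for Megf10 to 2.21 for Tead4 and of -2.10 for Ckm. With the replicate number as a block, Chrng was lost as well, at 1.30 with an adjusted p of 0.0115 by the same edgeR test. With this block and without replicate 1 of both muscles, Ckm, Cdkn1a, Tead4, Heyl and Myl4 were lost, at adjusted p from 0.0107 to 0.0207, and with the 2 muscles alone Tead4, Heyl and Myl4, at 0.0105 to 0.0185, all by edgeR. Limma did not call Tead4, nor edgeR Chrng with no limit on low counts.

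**Figure D5:**
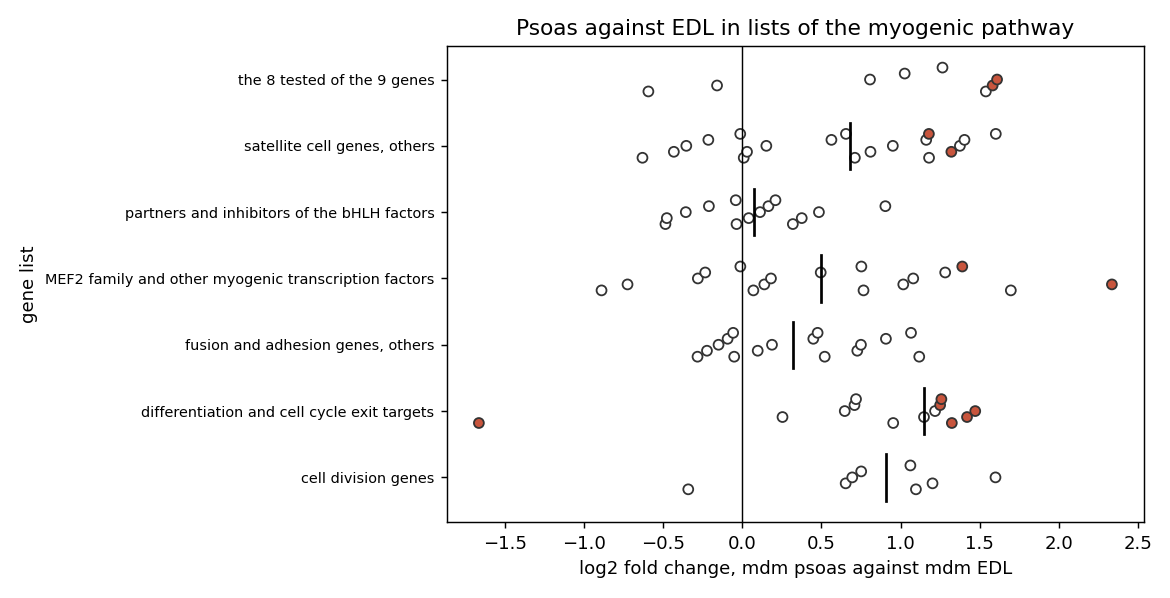
Log2 fold change of psoas against EDL (x axis) of the 8 genes tested and of the genes in 6 lists of the pathway (y axis), 1 point per gene, filled where called, with a bar at the median of each of the 6 lists. The filled points lie above 0 apart from Ckm, at -1.67, and none lies among the partners and inhibitors, the other fusion genes or the cell division genes.

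In soleus against EDL, 1 of the 88 was called as higher and 1 as lower, beside 0.978% of all genes tested, and in soleus against psoas 0 and 1, beside 0.0762%. Barx2, a homeobox factor of satellite cells, had a normalized count of 114 to 131 in soleus and 2.18 to 19.1 in EDL (log2 fold change 3.56 ± 0.597, adjusted p = 0.00651, edgeR's quasi-likelihood test). Myh8, the perinatal myosin heavy chain, ran from 6260 to 7403 in soleus, from 17650 to 30660 in EDL and from 26030 to 52630 in psoas, without overlap of soleus with either. It was the only 1 of the 88 called in soleus against psoas, at -2.56 ± 0.301 (adjusted p = 0.00163), and had -1.85 ± 0.289 against EDL (adjusted p = 0.00446), both by the same test. The calls of both genes were close to the limit. Leaving out any 1 of the 3 soleus libraries, or code T6, lost each of them, with adjusted p by edgeR up to 0.0681 for Barx2, 0.0308 for Myh8 against EDL and 0.023 for Myh8 against psoas. Barx2 was also lost without EDL replicate 1, 3 or 5 and with the code as a block, Myh8 against EDL without EDL replicate 3, and Myh8 against psoas with the 2 muscles alone. In these fits the log2 fold change ran from 3.16 to 3.65 for Barx2, from -1.96 to -1.76 for Myh8 against EDL and from -2.64 to -2.50 against psoas. Neither gene is one of the 9, and none of the 9 was called in these comparisons.

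As a description, the genes whose log2 CPM over the 13 libraries correlated best with each of the 8 were found among 11965 genes with a mean normalized count of at least 50. The best for Myog was Myl4 (r = 0.886), itself 1 of the targets above. For Myod1 they were Gatad2a (r = 0.942) and Trp53i11 (r = 0.915), for Mymk Ccdc86 (r = 0.944) and B4galt1 (r = 0.939), and for Mymx Dclk1 (r = 0.939) and Igsf10 (r = 0.931). For Myf5 they were Sh2b3 (r = 0.954) and Slc7a8 (r = 0.938), for Myf6 Lrrc8d (r = 0.942) and Depp1 (r = 0.921), and for Mef2c Cfap97 (r = 0.951) and Cul4a (r = 0.946). Pax7 had the lowest best value, with Hs2st1 (r = 0.853) and Zdbf2 (r = 0.852), and the second for Myog was Impa2 (r = 0.855). These libraries share muscle, label code and depth, and the genes were picked as the highest of many.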

How the data were processed

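RNA-seq values of 13 libraries (5 *mdm* EDL, 5 *mdm* psoas, 3 *mdm* soleus) were used, grouped by their titles. The authors trimmed reads of low quality (Trimmomatic 0.32), aligned paired 75-base reads of a stranded total RNA kit to GRCm38.p4 with TopHat2 2.1.1 and took gene counts with GenomicAlignments. The authors deposited these whole-number counts. The overlap and strand settings of the counting are not given in the sources used here. The authors also deposited a normalized signal, the count divided by a DESeq2 size factor, here called the normalized count, which was checked in every library (largest relative deviation 5.2e-15). The 17924 genes are those left after the study's own filter on low counts, and 0 entries named no gene. Of these, 17833 matched GENCODE mouse release M21, the source of symbols, coordinates and exon lengths.

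Counts were tested with edgeR 4.0.16 (R 4.3.3, TMM, quasi-likelihood, all 13 libraries, muscle as the only factor), Benjamini-Hochberg adjusted over 17069 genes, those that reached 10 normalized counts in 3 or more libraries. The study had fitted the sequencing run too, which the labels do not name. Log2 CPM have a prior count of 2, and ratios of counts a pseudocount of 1. DESeq2 1.42.0, limma 3.58.1 on log2(normalized count + 1), other size factors, filters and blocks, and fits without each library were alternatives. Other steps ran in Python 3.11.15 (scipy 1.17.1, numpy 2.4.6, pandas 2.3.3; plots by matplotlib 3.10.9). Correlations and ratios were tested by going through all arrangements of the libraries, within muscles 86400 for a correlation.

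On simulated counts for psoas against EDL (17069 genes, 200 changed), edgeR recovered 87% of 4-fold and 97% of 8-fold changes, with 3 false calls, against 21 for DESeq2 and 1 for limma. The changed genes were drawn from those with larger counts, and no effect of label code or pair was simulated. Differences of the 8 genes were all under 4-fold, so the simulation does not give the recovery at their size. No 2 libraries of 1 muscle were duplicates (23 pairs, smallest chi-square per degree of freedom 61.02). Total counts ran from 9114176 to 48835209. Reads carry no molecular identifiers, so a limit of 3 reads at a count of 0 covers counting error only.

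Same-numbered EDL and psoas libraries deviated together from their muscle means (r = 0.407, 0.370, 0.316, 0.289 and 0.371 for replicates 1 to 5, all over 0.1). The highest r of each EDL library with a psoas library of another number was lower, but also over 0.1 (0.118, 0.185, 0.102, 0.176 and 0.237). The numbers were taken as pairs in the block fits and the same-number differences. The main fit did not use the pairs and treated the 13 libraries as independent, although the paper reports fewer mice than muscles. Replicate 1 had the highest r although its EDL and psoas mice differed in age. The value of r therefore cannot tell whether a pair came from 1 mouse. The 9 genes and all lists were chosen with earlier results of these data known. Named from the pathway lists were genes called in any comparison, at most 12 by smallest adjusted p, and always Cdh15, Itga7, Mef2a and Mef2d. Also named were the 2 genes most correlated with each of the 8, and the motif CANNTG with its form CAGCTG and the MEF2 consensus were searched. The result of 1 list of markers of another cell type is not reported here.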

Additional observations from a re-analysis of the deposited data

Results flagged for a closer look

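Groups of 5 libraries were checked for a library far from the others, meaning that its gap to the nearest value was over 0.71 of the whole range. This was done for the 9 genes and the named genes of the pathway lists in EDL and psoas, and for the 6 ratios, 62 groups in all, of which 5 had such a library. Chance alone marks about 1 in 20 groups. All 5 were in psoas. Pax3 was highest in psoas replicate 1, at a normalized count of 17.24. The same library was highest for Cdkn1a, at 923.3, and for Mef2d, at 625.6, and lowest for the receptor subunit Chrng, at 137.9. Psoas replicate 1 came from the youngest mouse, of 29 days, and was the only library of code T3, and the part of age, code and mouse in these values cannot be told apart. Runx1 was highest in psoas replicate 3, at 1871.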

How the results depend on the processing

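The number of the 9 genes called as higher in psoas against EDL was 2. It ran from 1 to 3 in fits without 1 library, was 1 without the libraries of code T6 (chosen after the data were seen), and lay between 2 and 3 under the other alternatives. In soleus against psoas it was 1, Myod1, with DESeq2 (adjusted p = 6.39e-07) and with limma (adjusted p = 0.00884), and from 0 to 1 in fits without 1 library. Pairs that vary together numbered 0 to 1 without 1 library. In soleus against EDL it stayed at 0 under all alternatives, and so did the number of ratios that passed, except that ratios with the label code removed were not tested, since arrangements within codes are too few to pass.

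With the replicate number as a block, EDL and psoas only, 3 of the 8 genes were called, the third being Mymx at 1.42. Without replicate 1 of both muscles (chosen after the data were seen) it was also 3, with Mymx at 1.68. The block changed no other call of the 8 genes. Mymx was also called with DESeq2, with the code as a block, with a count of at least 10 in 10 libraries and without psoas replicate 1, and Mef2d with DESeq2. The other 18 of the 24 alternatives did not call Mymx.

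Directions reversed where differences were near 0. Without 1 library, the log2 fold change ran from -0.46 to 0.17 for Myf6 and from -0.11 to 0.10 for Mef2a in psoas against EDL, and Mef2a was 0.00 with the stricter count limit. In soleus against EDL it ran from -0.54 to 0.48 for Myf5, -0.31 to 0.04 for Myog, -0.23 to 0.31 for Myf6 and -0.11 to 0.36 for Mymx. There the code as a block gave -0.44 for Myf5, -0.17 for Mymk and -0.10 for Mymx, limma -0.08 for Myf5 and 0.00 for Myf6, and the fit without T6 0.19 for Myod1, 0.00 for Myog, 0.02 for Myf6 and 0.01 for Mef2c. In soleus against psoas Myf6 ran from -0.08 to 0.45 without 1 library and was -0.26 with the code as a block. The log2 ratio of Myog to Pax7 in psoas against EDL ran from -0.30 to 0.10 and that of Mymx to Mymk from -0.39 to 0.02 without 1 library, the latter being 0.07 with the code removed. The cause was not tested.

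Over all genes, DESeq2 called 812 as higher and 774 as lower in psoas against EDL, the block 702 and 565, the 2 muscles alone 296 and 261, and fits without 1 library 170 to 402 and 147 to 449, against 415 and 426. In soleus against EDL, 91 and 76 became 270 and 363 with DESeq2, 31 and 55 with the code as a block, 37 and 26 without T6, and 17 to 90 and 2 to 92 without 1 library. In soleus against psoas, 12 and 1 became 95 and 76 with DESeq2, 15 and 5 with limma, 4 and 2 with the code as a block, 8 and 0 with the 2 muscles alone, 3 and 1 with the stricter count limit, and 0 and 0 without T6. With no limit on low counts Pax3 was tested too and was not called, with adjusted p of 0.696, 0.272 and 0.438 by edgeR in psoas against EDL, soleus against EDL and soleus against psoas.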
